A study of Mus musculus with 6 samples.

Results

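Mmp14 encodes a collagenase held in the plasma membrane. It was described in long-term haematopoietic stem cells (LT-HSCs) together with 7 genes of pericellular proteolysis, the cutting of proteins at and just outside the cell surface. The set took in the inhibitors Timp1, Timp2, Timp3 and Reck, the metalloproteinase inducer Bsg, and the sheddases Adam10 and Adam17. These 8 genes are among 55357 gene identifiers in the count table, and 7 of the 8 had any counts. Mmp14 was picked because it stood out between the genotypes in these same libraries, and the 7 others were added by function with those results known. All 8 genotype differences are therefore given as descriptions without a test, and no measure independent of the choice was at hand to test.

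The libraries came from LT-HSCs of young mice, 3 animals with a Dcaf8 knockout (KO) and 3 wild-type animals (WT). The Dcaf8 protein recruits substrates to ubiquitin ligases built on CUL4 and DDB1, and the study asked how its loss impairs the function of stem cells. The cells were sorted from bone marrow as lineage-negative, Sca-1-positive and c-Kit-positive cells that carry CD150 and lack CD48. Each library was amplified from 50 cells of 1 mouse by a full-length mRNA method. The sources used here name neither the knockout allele nor the strain or the sexes.

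The MMP14 protein (MT1-MMP) degrades fibrillar collagen, trims adhesion receptors such as CD44 and activates the secreted gelatinase MMP2. That last step uses TIMP2 as an adaptor: TIMP2 held on one MMP14 molecule docks pro-MMP2, while excess TIMP2 blocks the enzyme. TIMP3 is bound to the matrix and inhibits both metalloproteinases and ADAM17, TIMP1 is a poor inhibitor of MMP14, and RECK is a membrane-anchored inhibitor. Basigin, the Bsg product, induces metalloproteinases in neighbouring cells and chaperones lactate transporters. ADAM10 starts the ligand-driven cleavage of Notch receptors, and ADAM17 releases TNF and other membrane-bound ligands and receptors. In human blood progenitors, more MT1-MMP and less RECK at the surface accompany their exit from the marrow.

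Start regions of 300 bases (250 before and 50 after the annotated start of transcription) matched 7 of the 8 genes by symbol in RefSeq, build GRCm38.p6. Those of 2 genes are shown because they frame the results, Mmp14 as the gene that stood out and Timp1 as the gene without a single count. Capitals mark a GC box (GGGCGG, the letters bound by SP1-type factors) or an EGR site (GCGNGGGCG), searched on both strands. The Mmp14 region is chr14:54431348-54431647 and the Timp1 region is chrX:20869916-20870215, both on the plus strand.
Mmp14: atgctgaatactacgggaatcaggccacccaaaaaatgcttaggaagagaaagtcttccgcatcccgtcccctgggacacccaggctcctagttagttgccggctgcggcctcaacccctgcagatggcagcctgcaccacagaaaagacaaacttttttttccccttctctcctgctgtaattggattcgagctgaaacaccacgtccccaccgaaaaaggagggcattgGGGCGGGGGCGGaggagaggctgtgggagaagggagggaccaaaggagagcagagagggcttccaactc
Timp1: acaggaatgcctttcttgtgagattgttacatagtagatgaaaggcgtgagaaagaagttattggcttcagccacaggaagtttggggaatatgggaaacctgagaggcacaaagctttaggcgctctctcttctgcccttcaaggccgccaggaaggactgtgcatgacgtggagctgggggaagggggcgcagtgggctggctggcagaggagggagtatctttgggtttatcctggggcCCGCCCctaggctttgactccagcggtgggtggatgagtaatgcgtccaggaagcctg

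In the Mmp14 region 2 GC boxes stand in tandem, with first bases at positions -19 and -13 (the last base before the start is -1). The single EGR site, with its first base at -17, overlaps both. A GC box occurred in 7 of the 7 matched regions and in 35.7% of all 32851 start regions of the same length. The EGR site occurred in 1 of the 7 and in 5.6% of all regions. An AP-1 site (TGANTCA) occurred in 0 of the 7, as against 7.8% of all regions. G and C made up 56.0% of the Mmp14 region and 55.0% of the Timp1 region, and between 67.0 and 73.3% of the 5 others, against a median of 52.7% over all regions. These letter matches describe the windows only.

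Total counts ranged from 14461864 to 22386387 per library. Dcaf8 stood at 74.3, 38.1 and 45.2 TMM-normalised CPM (read counts divided by the library total, corrected with edgeR's TMM factors) in KO replicates 1 to 3, against 290.5, 293 and 204 in WT replicates 1 to 3. The exact permutation p, two-sided, was 0.1, the smallest that 3 against 3 animals can give. Sums of marker genes here and later, and single values of those genes, are CPM of the total count, without TMM factors. All 10 LT-HSC marker genes were counted, with sums of 2437 to 2871 CPM in KO and 2636 to 2788 CPM in WT. Libraries that stood apart were WT replicate 2, with 7536 CPM of neutrophil markers against at most 30.5 elsewhere, and KO replicate 3, the only library with Xist above 2 CPM (50.7 CPM) and with 0 Ddx3y. Uty and Kdm5d were also at 0 there and Eif2s3y at 0.18 CPM, while every other library held counts of each of these Y-linked genes. By these markers KO replicate 3 read as female and the rest as male, so sex was not balanced between the genotypes. WT replicate 3 contained the fewest genes with a count, 15244 against 16183 to 17015 elsewhere.

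Mmp14 (ENSMUSG00000000957, chromosome 14) stood at 58.9, 92.7 and 74.8 CPM in KO replicates 1 to 3, against 20.2, 15.1 and 4.41 CPM in WT replicates 1 to 3. Every KO library lay above every WT library, and the lowest KO level was 2.92 times the highest WT level. The raw counts behind these levels were 1343, 1332 and 1653 in KO and 358, 312 and 87 in WT. Reads amplified from 50 cells are not independent molecules, and how many molecules they stand for was not measured. The mean was 75.5 ± 16.9 CPM in KO and 13.2 ± 8.04 CPM in WT (SD, n = 3 per group), a log2 fold change of 2.50 ± 0.45 (SE). Within a genotype the levels ranged 1.58-fold in KO and 4.57-fold in WT, because WT replicate 3 lay far under the 2 other WT libraries. Without that library the log2 fold change was 2.09. Without the library rich in neutrophil RNA, WT replicate 2, it was 2.63, and without KO replicate 3 it was 2.50.

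**Figure D1:**
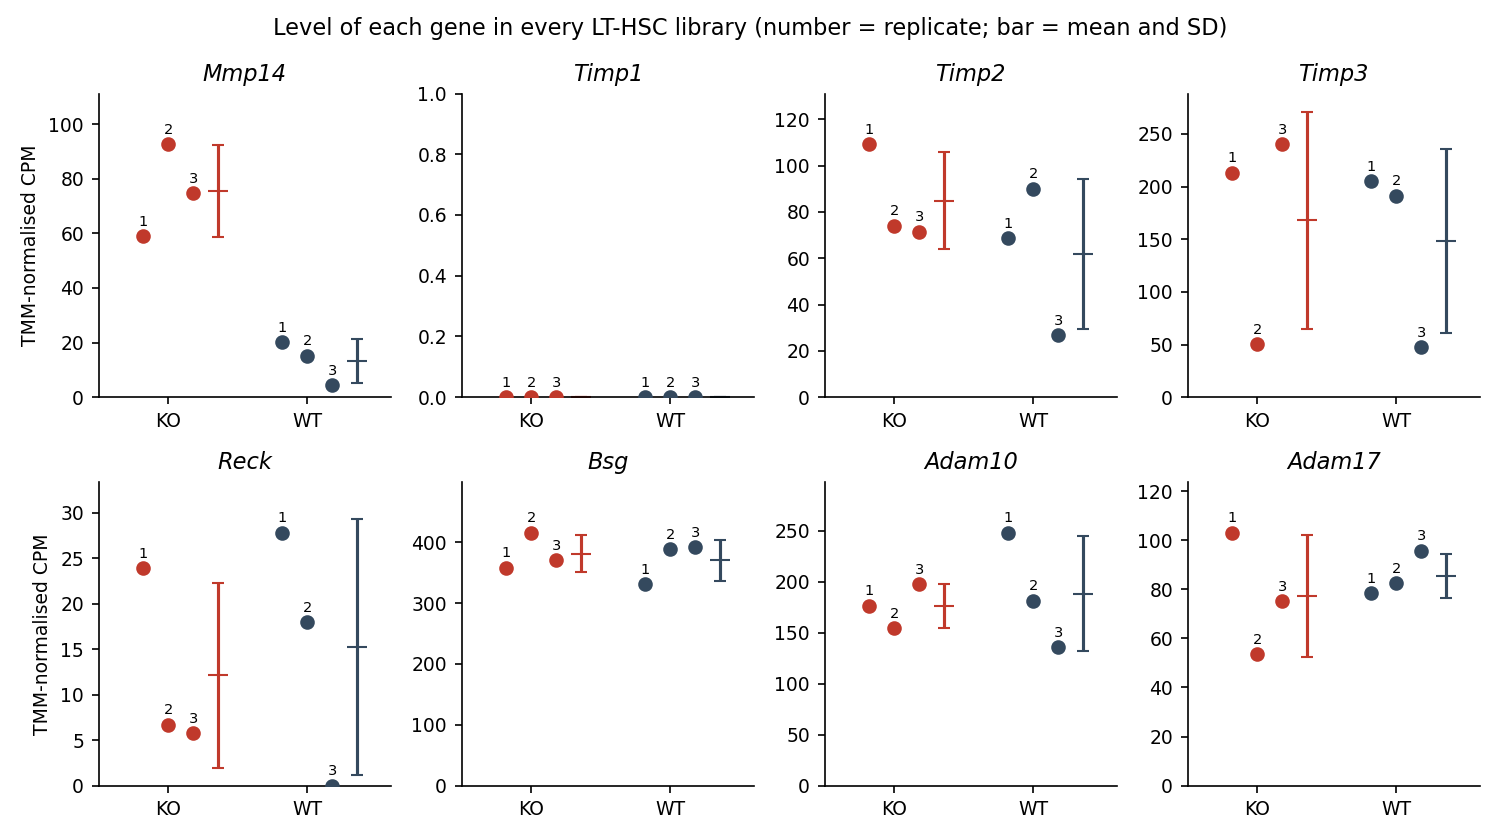
TMM-normalised CPM of the 8 genes in the 3 KO and 3 WT libraries (points, numbered by replicate) with the mean and SD of each group at the right of its points; every axis starts at 0. The genotypes separate for Mmp14, whose lowest KO library stands at 58.9 CPM and highest WT library at 20.2 CPM, while the points of the 6 other counted genes overlap.

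Among the 7 genes that passed the filter on low counts, Mmp14 was the only one whose groups did not overlap. Over all 14592 genes tested, KO lay wholly above WT for 5.91% and wholly below for 4.43%, 10.3% in all, and nothing is read from the count of members since Mmp14 was chosen on this contrast. By edgeR (quasi-likelihood, Benjamini-Hochberg), 0 of 14592 genes (0%) passed an adjusted p of 0.05 as higher in KO and 0 (0%) as lower. Dcaf8, the deleted gene, did not pass either (log2 fold change -2.28, edgeR adjusted p = 0.739). A gene that did not pass is therefore not shown to be unchanged. At an unadjusted p under 0.05 edgeR gave 849 genes (5.82%). With limma-voom 0 genes (0%) passed and 822 (5.63%) had an unadjusted p under 0.05. DESeq2 passed 153 of 17779 genes (0.861%), and 1149 of 20237 genes (5.68%) had an unadjusted p under 0.05. The median log2 fold change was 0.04 over the 7 members tested and 0.01 over all genes tested.

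For each of the counted inhibitors the genotypes overlapped. Timp2, the adaptor and inhibitor, stood at 109, 74.0 and 71.5 CPM in KO replicates 1 to 3, against 68.6, 90.1 and 26.7 CPM in WT replicates 1 to 3. WT replicate 3 was the lowest of the 6 by a wide margin. The means were 84.9 ± 21.2 CPM in KO and 61.8 ± 32.2 CPM in WT (SD, n = 3 per group), with a log2 fold change of 0.47 ± 0.42 (SE). It was 0.11 without WT replicate 3, 0.23 without KO replicate 1 and 0.87 without WT replicate 2.

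Timp3, the matrix-bound inhibitor, stood at 213, 50.1 and 240.3 CPM in KO replicates 1 to 3, against 205, 191 and 47.4 CPM in WT replicates 1 to 3. Here 1 library of each genotype was low, KO replicate 2 and WT replicate 3, and the 4 others lay close together. The log2 fold change of 0.24 ± 0.61 (SE) turned negative without KO replicate 3 (-0.10) or WT replicate 3 (-0.20), and was 0.62 without KO replicate 2. Timp3 lies inside the synapsin gene Syn3 on the opposite strand and shares 1733 exon bases with it in the GENCODE annotation of GRCm38. Syn3 held 0.126, 0.405 and 0.356 counts per Timp3 count in KO replicates 1 to 3, against 0.253, 0.211 and 0.274 in WT replicates 1 to 3. Whether the counting used strand is not stated, so how reads in that overlap were counted is not known.

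Reck, the membrane-anchored inhibitor, was the scarcest counted member over all 6 libraries, though not within WT, where Mmp14 averaged less, and it was the most uneven. It stood at 23.9, 6.68 and 5.79 CPM in KO replicates 1 to 3, against 27.8, 17.9 and 0 CPM in WT replicates 1 to 3. The 0 in WT replicate 3 allows up to 0.152 CPM (3 counts, counting error only). Its log2 fold change, -0.21 ± 0.94 (SE), changed sign without KO replicate 2 (0.00), KO replicate 3 (0.17) or WT replicate 1 (0.49), and was -1.28 without KO replicate 1 and -0.82 without WT replicate 3. Timp1 had 0 counts in all 6 libraries. A count of 0 allows up to between 0.131 and 0.209 CPM in the KO libraries and between 0.145 and 0.169 CPM in the WT libraries, so no genotype comparison was possible for it. In samples of pooled cells, fewer cells with a transcript and less of it per cell cannot be told apart.

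Bsg was the steadiest of the 8. It stood at 358, 416 and 371 CPM in KO replicates 1 to 3, against 330.5, 388 and 391.6 CPM in WT replicates 1 to 3. The groups overlapped in part, with KO replicate 2 above every WT library and WT replicate 1 below every KO library. The means were 381 ± 30.4 CPM in KO and 370.0 ± 34.3 CPM in WT (SD, n = 3 per group). Its log2 fold change was 0.04 ± 0.13 (SE), and -0.02 without KO replicate 2 and -0.04 without WT replicate 1. The spread of its log2 CPM within genotypes was 0.13 (SD), smaller than in all but 3.88% of the 11507 genes with a mean of at least 5 CPM, where the median was 0.46. The same measure was 0.33 for Adam10, 0.35 for Adam17, 0.69 for Timp2, 0.84 for Mmp14, 1.23 for Timp3 and 3.28 for Reck.

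The sheddase genes also overlapped between genotypes. Adam10 stood at 177, 155 and 198 CPM in KO replicates 1 to 3, against 248, 181 and 136 CPM in WT replicates 1 to 3, with a log2 fold change of -0.08 ± 0.24 (SE). All 3 KO libraries fell inside the WT range, and without WT replicate 1 the log2 fold change was 0.15. Adam17 stood at 103, 53.5 and 75.1 CPM in KO replicates 1 to 3, against 78.3, 82.6 and 95.7 CPM in WT replicates 1 to 3. Here the WT libraries fell inside the KO range, and the log2 fold change of -0.11 ± 0.27 (SE) was 0.06 without KO replicate 2 and -0.39 without KO replicate 1. Adam17 shares 311 exon bases with Iah1 on the opposite strand in the GRCm38 annotation, so reads there carry the same doubt as those of Timp3.

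**Figure D2:**
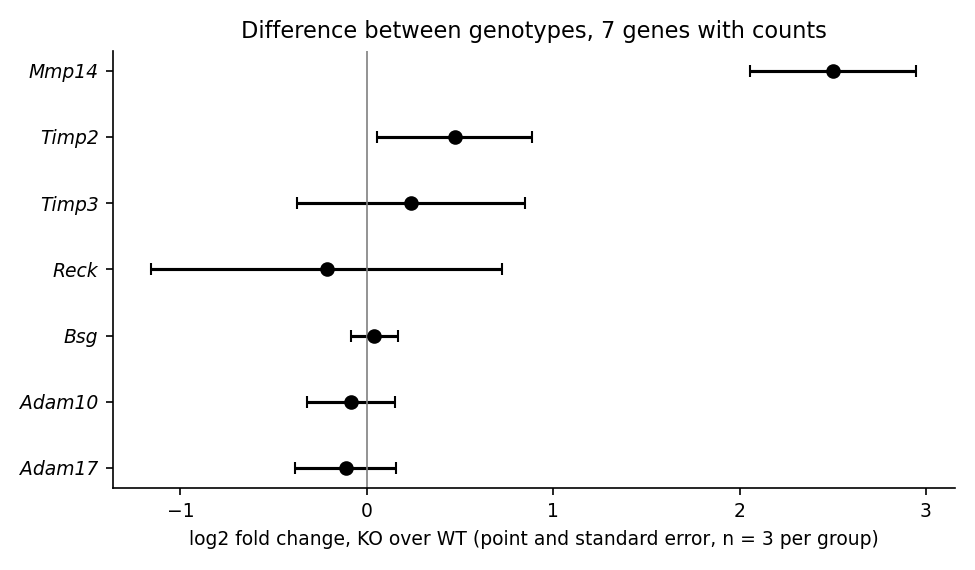
Log2 fold change of KO over WT (points) with its standard error (bars) for the 7 genes with counts, from the edgeR fit over all genes, n = 3 per group. Mmp14 stands at 2.50, and the 6 others lie between -0.21 and 0.47, 5 of them with a standard error larger than their size.

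Levels were then set side by side per length, as TMM-normalised CPM per kb of exon in the GRCm38 annotation. Bsg had the highest level in all 6 libraries, 210.2 ± 16.8 CPM per kb in KO and 204 ± 18.9 in WT, and Adam10 the second highest in all 6, 35.9 ± 4.36 in KO and 38.4 ± 11.5 in WT (SD, n = 3 per group). Timp3 and Timp2 came next at 19.4 and 18.8 CPM per kb over all libraries. By this length they could not be ordered, since each was the higher one in 3 of 6 libraries. Adam17, at 11.4 over all libraries, was under Timp2 in 5 of 6.

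Mmp14 came after these over all libraries, at 7.44 CPM per kb, but its place differed by genotype, with 12.7 ± 2.84 in KO and 2.22 ± 1.35 in WT beside 10.8 ± 3.48 in KO and 12.0 ± 1.27 in WT for Adam17. In WT it was under Adam17 in 3 of 3 libraries, whereas in KO it was above Adam17 in 2 of 3 libraries. Reck followed at 2.54 ± 2.14 CPM per kb in KO and 3.19 ± 2.95 in WT, and it was below Mmp14 in 3 of 3 KO libraries but in 1 of 3 WT libraries. Over all libraries the Mmp14 level per kb lay above that of 50.6% of the genes tested, Reck above 29.9% and Bsg above 98.7%. The order over all libraries was the same with the length of the longest transcript in place of all exons. Timp3 and Timp2 then stood further apart, at 33.4 and 19.8 CPM per kb, so their near tie depends on the length used.

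Mmp14 was then set against its inhibitors within each library. The summed level of Timp2, Timp3 and Reck was 59.2, 26.5 and 49.1 CPM per kb in KO replicates 1 to 3, against 48.6, 50.4 and 12.7 in WT replicates 1 to 3. The groups overlapped, with 1 low library in each. The ratio of Mmp14 to that sum was 0.167, 0.586 and 0.256 in KO replicates 1 to 3, against 0.0696, 0.0504 and 0.0584 in WT replicates 1 to 3. All 3 KO ratios lay above all 3 WT ratios. The coefficient of variation of the ratio was 65.8% in KO and 16.2% in WT, whereas that of the Mmp14 level was 22.5% in KO and 60.8% in WT. WT replicate 3, the lowest library for Mmp14, was also the lowest WT library for Timp2, Timp3, Reck and Adam10, 5 of the 7 counted genes. KO replicate 2, the highest for Mmp14, was the lowest KO library for Timp3, Adam10 and Adam17.

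Against single partners the separation differed in size. The ratio of Mmp14 to Timp2 averaged 0.618 ± 0.240 in KO and 0.137 ± 0.0481 in WT (SD, n = 3 per group). That of Mmp14 to Timp3 averaged 1.11 ± 1.23 in KO and 0.123 ± 0.0135 in WT, with KO replicate 2 alone at 2.53 and the 2 other KO libraries at 0.377 and 0.425. Timp3 per Adam17, an inhibitor set against an enzyme it blocks, averaged 1.82 ± 0.994 in KO and 1.59 ± 1.01 in WT and overlapped. Adam10 per Adam17 likewise averaged 3.51 ± 0.902 in KO and 3.30 ± 1.28 in WT. All of these share the Mmp14 values or the same libraries and add no independent evidence of a difference.

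**Figure D3:**
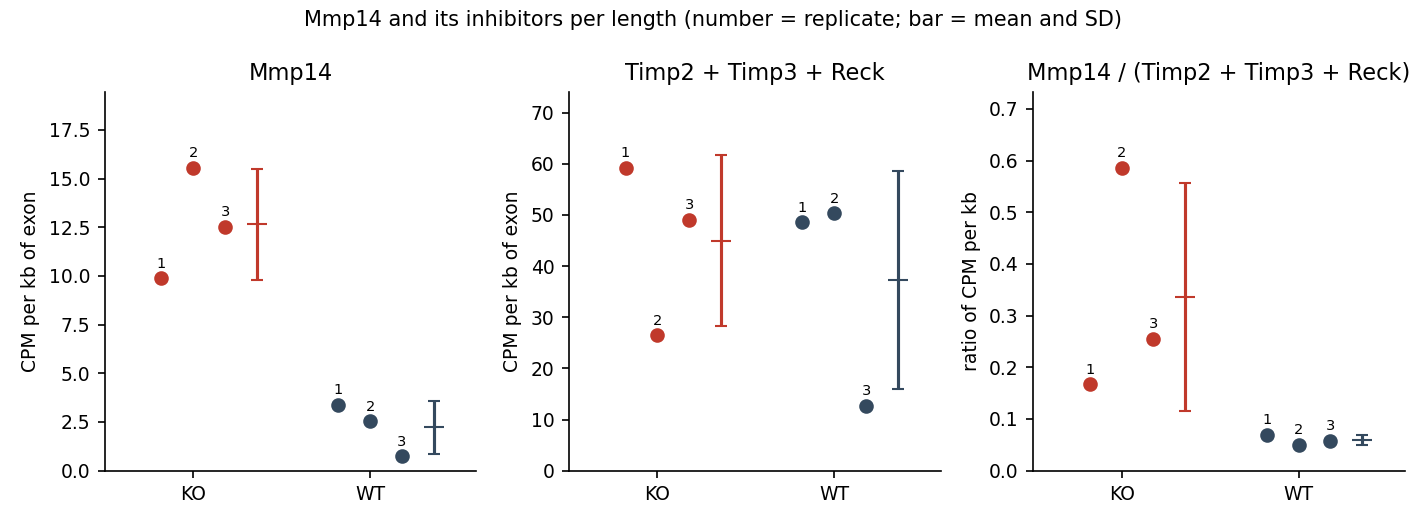
Mmp14, the sum of Timp2, Timp3 and Reck (both in TMM-normalised CPM per kb of exon) and their ratio in the 3 KO and 3 WT libraries (points, numbered by replicate) with the mean and SD of each group. The inhibitor sums overlap, and the WT ratios sit between 0.0504 and 0.0696, under the KO ratios of 0.167 to 0.586.

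Marrow cells that are rich in pericellular proteases were looked for by markers. Of 10 stromal markers, the 7 genes Cxcl12, Lepr, Pdgfra, Dcn, Lum, Alpl and Bglap had 0 counts in all 6 libraries. The list summed to 2.77 to 12.2 CPM in KO and 0 to 5.51 CPM in WT, and in KO the sum was Pdgfrb alone (12.2, 2.77 and 4.92 CPM in replicates 1 to 3, against 0, 1.92 and 0 CPM in WT). Macrophage markers summed to 413 to 572 CPM in KO and 436 to 919 CPM in WT, most of it Lyz2, with Adgre1, Cd5l and Marco at 0. Of that list, Cd68 stood at 36.7, 69.8 and 18.46 CPM in KO replicates 1 to 3, against 8.32, 18.25 and 15.3 CPM in WT. Every KO library thus lay above every WT library for Cd68, though KO replicate 3 and WT replicate 2 nearly met. C1qb went the other way, at 1.97, 2.28 and 0 CPM in KO, against 6.18, 11.2 and 10.6 CPM in WT. For it every KO library lay below every WT library. Over all genes tested, KO lay wholly above WT for 5.91% and wholly below for 4.43%. Endothelial markers summed to 206 to 285 CPM in KO and 212 to 246 CPM in WT, most of it Tie1 and Egfl7, with Cdh5 and Flt4 at 0. The part of Pdgfrb-positive, Cd68-positive or C1qb-positive cells in the Mmp14 result was not tested.

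The genes whose profile over the 6 libraries was most like that of Mmp14 were found by the root mean square difference of centred log2 CPM, among 10178 named genes with a mean of at least 5 CPM. Foxj2, a forkhead transcription factor gene, was the closest, with a difference of 0.165 against a median of 1.595. Foxj2 stood at 16.4, 24.0 and 22.3 CPM in KO replicates 1 to 3, against 4.28, 3.39 and 0.964 CPM in WT replicates 1 to 3. Its level was thus 0.279, 0.259 and 0.299 of the Mmp14 level in the KO libraries and 0.212, 0.224 and 0.218 in the WT libraries. The next were Pkia (a protein kinase A inhibitor gene; 0.324), Znf41-ps (0.419), Sox13 (an SRY-box transcription factor gene; 0.451), H2-T-ps (0.524) and Plekha5 (0.544). All 6 had every KO library above every WT library and their lowest value in WT replicate 3. Both traits come with the choice by likeness to Mmp14, which has them too, and nothing is read from them. Names ending in ps are pseudogenes, whose reads can be shared with close relatives. Leaving out 1 library at a time, Foxj2 stayed among the 6 closest in 6 of 6 repeats, Pkia in 5 and Plekha5 and H2-T-ps in 1 each. Without WT replicate 3 only Foxj2 of the 6 remained, without WT replicate 1 only 2 and without KO replicate 2 only 3, so the list beyond Foxj2 depends on single libraries.

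**Figure D4:**
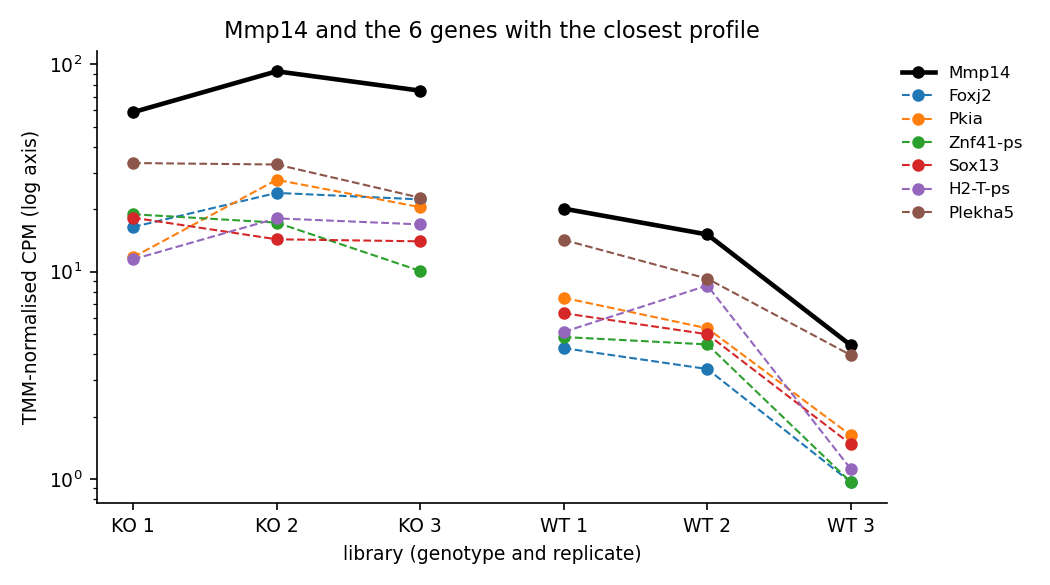
TMM-normalised CPM (log axis) of Mmp14 (thick line) and the 6 genes with the closest profile in each KO and WT library; lines only join the points of a gene. Each gene is lowest in WT replicate 3, where Mmp14 stands at 4.41 CPM and Foxj2 at 0.964 CPM, a shape shared through the choice by likeness.

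Related genes were then taken from 11 lists of proteases, inhibitors, partners and substrates, 177 genes in all, of which 116 had a count and 98 were tested. By edgeR, 0 of the 98 passed in either direction over all genes, a test that the deleted gene Dcaf8 did not pass either. DESeq2 called 1, Dll1, against a share of 0.861% over all genes. At an unadjusted p under 0.05 there were 3 with higher values in KO (Adamts3, Tgfa and Lamc1) and 3 with lower values (Dll1, Axl and Plaur), 6.12% of the 98 against 5.82% of all genes. Adamts3 and Tgfa were near 0 in WT, with 15, 0 and 0 counts and 22, 0 and 1 counts in WT replicates 1 to 3. Their KO counts were 121, 25 and 225 for Adamts3 and 76, 23 and 228 for Tgfa. KO lay wholly above WT for 7 and wholly below for 4 (Dll1, Axl, Plaur and Hpn), 11.2% against 10.3% of all genes. Positive log2 fold changes made up 63.3% of the 98, against 50.9% of all genes tested, and the median was 0.14, against 0.01. That share and median were not recomputed without single libraries, so nothing is read from them. List medians without 1 library, given below, come from fits that filtered the genes anew, so the genes behind them can differ.

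Other matrix metalloproteinases were few in these cells. Of 22 genes 12 had 0 counts in all libraries, 9 were tested, and 8 of these had positive values (median log2 fold change 0.66), none past the test (adjusted p of at least 0.874 for the named ones). The median was 0.04 without WT replicate 2 and 1.45 without WT replicate 3. Mmp24, another membrane-type enzyme gene, stood at 25.8, 21.1 and 29.5 CPM in KO replicates 1 to 3, against 17.2, 16.6 and 10.2 CPM in WT replicates 1 to 3. Every KO library lay above every WT library (log2 fold change 0.83 ± 0.40, SE). Mmp2, the gelatinase that MMP14 activates, stood at 46.2, 5.71 and 6.15 CPM in KO replicates 1 to 3, against 16.4, 0 and 0 CPM in WT replicates 1 to 3. Its groups overlapped, and KO replicate 1 alone held most of the KO sum. Mmp11, a secreted stromelysin gene, averaged 24.1 ± 4.70 CPM in KO and 27.2 ± 4.77 CPM in WT. Mmp9, the gelatinase of neutrophils, was counted in WT replicate 2 alone, at 16.9 CPM, the library with the neutrophil markers.

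Genes that process or carry these proteases had a median log2 fold change of 0.19 over 9 tested members, 5 positive and 4 negative. Leaving out 1 library moved it between 0.05 (KO replicate 1 or 3) and 0.34 (WT replicate 3). Frmd8, whose product holds ADAM17 and its iRhom carriers at the surface, averaged 172 ± 22.8 CPM in KO and 119.9 ± 30.8 CPM in WT, with every KO library above every WT library (log2 fold change 0.51 ± 0.23, SE; edgeR adjusted p = 0.864). Furin, the convertase that removes the MMP14 propeptide, averaged 20.7 ± 5.78 CPM in KO and 11.4 ± 9.65 CPM in WT. WT replicate 3 held 0.304 CPM of it, and the 2 other WT libraries overlapped the KO range. Tspan17, a tetraspanin gene of the ADAM10 carrier group, averaged 9.09 ± 2.74 CPM in KO and 3.17 ± 5.49 CPM in WT and overlapped. Tspan14, a carrier of ADAM10, averaged close to the same level in both, with a log2 fold change of -0.01.

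Surface partners and substrates of MMP14 had a median log2 fold change of 0.22 over 14 tested members, with 10 positive. It was -0.02 without WT replicate 3, 0.07 without KO replicate 3, 0.11 without WT replicate 2 and 0.47 without WT replicate 1. Itgb3, the integrin beta 3 gene, stood at 15.7, 43.0 and 99.8 CPM in KO replicates 1 to 3, against 0.619, 43.6 and 3.60 CPM in WT replicates 1 to 3, and overlapped. Adam9, another metalloproteinase gene, averaged 11.9 ± 16.7 CPM in KO and 25.6 ± 14.4 CPM in WT and overlapped as well. The Notch ligand gene Dll1, named after its values were seen, had 0 counts in each KO library, against 13, 160 and 167 counts in WT replicates 1 to 3. With each KO library set at a floor of 3 counts, the WT mean was 35.6 times the KO mean. WT replicate 1 lay far nearer that floor, at 0.732 CPM against 7.76 and 8.47 CPM in WT replicates 2 and 3. The floor covers counting error only, and a library can read 0 within a genotype, as Reck did with 494, 370 and 0 counts in WT. The 35.6 is therefore no lower bound on the genotype difference. edgeR did not call Dll1. With Dll1 at that floor the list's median was also 0.22.

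Substrates of ADAM10 and ADAM17 were split, 13 positive and 11 negative of 24 tested, with a median log2 fold change of 0.06 that ranged from 0.02 without WT replicate 3 to 0.25 without WT replicate 1. Axl, a receptor tyrosine kinase gene, stood at 8.33, 14.1 and 7.92 CPM in KO replicates 1 to 3, against 20.04, 34.1 and 26.3 CPM in WT replicates 1 to 3. Every KO library lay below every WT library (log2 fold change -1.49 ± 0.46, SE; edgeR adjusted p = 0.744). The adhesion gene Alcam averaged 11.5 ± 7.84 CPM in KO and 4.45 ± 4.36 CPM in WT, and the platelet receptor gene Gp1ba 48.7 ± 11.02 CPM in KO and 33.2 ± 9.85 CPM in WT; both overlapped. The other ADAM genes counted (4 tested of 11; median -0.73) and the ADAMTS genes (3 tested of 19; median 0.08) had few counted members. Adam22 averaged 9.66 ± 5.55 CPM in KO and 19 ± 15.2 CPM in WT, Adam15 43.1 ± 10.6 CPM in KO and 54.9 ± 13.9 CPM in WT, and Adamts10 102 ± 38.0 CPM in KO and 96.8 ± 25.6 CPM in WT. All 3 overlapped. The ADAM median was -0.34 without WT replicate 3. The ADAMTS median was below 0 without any 1 of the 6 libraries, from -0.004 without WT replicate 2 to -1.04 without WT replicate 3. Those fits filtered the genes anew, so these medians need not cover the same 3 genes.

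The plasminogen system, the other main route of pericellular proteolysis, had 4 of 5 tested members with negative values and a median log2 fold change of -0.68. Plaur, the urokinase receptor gene, stood between 100.2 and 153 CPM in the KO libraries, against 187 to 284 CPM in the WT libraries, with the highest value in WT replicate 2. Every KO library lay below every WT library (log2 fold change -0.75 ± 0.24, SE; edgeR adjusted p = 0.752). Serpine2, an inhibitor of urokinase and thrombin, averaged 29.6 ± 27.0 CPM in KO and 72.8 ± 16.1 CPM in WT and overlapped. Anxa2, a plasminogen-binding annexin gene, averaged 58.5 ± 9.97 CPM in KO and 90.9 ± 58.2 CPM in WT, with its highest value, 157 CPM, in the neutrophil-rich WT replicate 2. Without that library the list's median was -0.16. Plau, Plat and Plg had 0 counts in all 6 libraries.

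Among other protease inhibitors 4 of 13 were tested, and in 3 of them every KO library lay above every WT library by small margins. Of the 98 tested genes of all 11 lists 7 did so, as did 5.91% of all genes tested. The lists were chosen with earlier results of these data known, so nothing is read from the 3 of 4. Cst3, the cysteine protease inhibitor cystatin C, averaged 258 ± 16.3 CPM in KO and 219 ± 8.79 CPM in WT. Tfpi, the tissue factor pathway inhibitor, averaged 106 ± 13.8 CPM in KO and 82.6 ± 5.85 CPM in WT, and Spint2, an inhibitor of membrane serine proteases, 308 ± 15.03 CPM in KO and 268 ± 15.5 CPM in WT (SD, n = 3 per group). Their log2 fold changes were 0.24, 0.36 and 0.20, and none passed (edgeR adjusted p of at least 0.889).

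Matrix protein genes were sparse, with 9 of 20 tested and a median log2 fold change of 0.92, which was 0.31 without KO replicate 1 and 0.42 without WT replicate 3. Lamc1, the laminin gamma 1 gene, averaged 18.4 ± 8.32 CPM in KO and 4.89 ± 6.07 CPM in WT and overlapped, and Spp1, the osteopontin gene, averaged 13.0 ± 9.95 CPM in KO and 2.02 ± 3.499 CPM in WT with 2 WT libraries at 0. Thbs1, the thrombospondin gene, averaged 10.7 ± 11.3 CPM in KO and 5.42 ± 9.21 CPM in WT. Without WT replicate 2, which held all the WT counts of Spp1, the list's median was 4.28, a value that depends on how genes at 0 in a group are fitted. Basigin's partners and relatives had a median of 0.04 over 9 tested members. Slc3a2, the CD98 heavy chain gene, averaged 367 ± 15.8 CPM in KO and 407 ± 29.7 CPM in WT, and the lactate transporter gene Slc16a1 averaged 156 ± 67.9 CPM in KO and 103 ± 67.4 CPM in WT. A relative of that transporter, Slc16a7, averaged 12.6 ± 3.69 CPM in KO and 19.6 ± 12.3 CPM in WT, and all 3 overlapped. The median of basigin's partners was 0.21 without KO replicate 1 and -0.002 without KO replicate 2. Membrane serine proteases and surface peptidases had a median of 0.21 over 10 tested members, which was -0.08 without KO replicate 3 and 0.02 without WT replicate 2. Ece1, the endothelin-converting enzyme gene, averaged 39.4 ± 7.65 CPM in KO and 31.7 ± 16.9 CPM in WT. Cpd, a carboxypeptidase gene, averaged 12.3 ± 12.2 CPM in KO and 7.36 ± 8.32 CPM in WT, and Fap, a serine peptidase gene, 4.59 ± 4.69 CPM in KO and 6.88 ± 11.9 CPM in WT. These also overlapped.

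**Figure D5:**
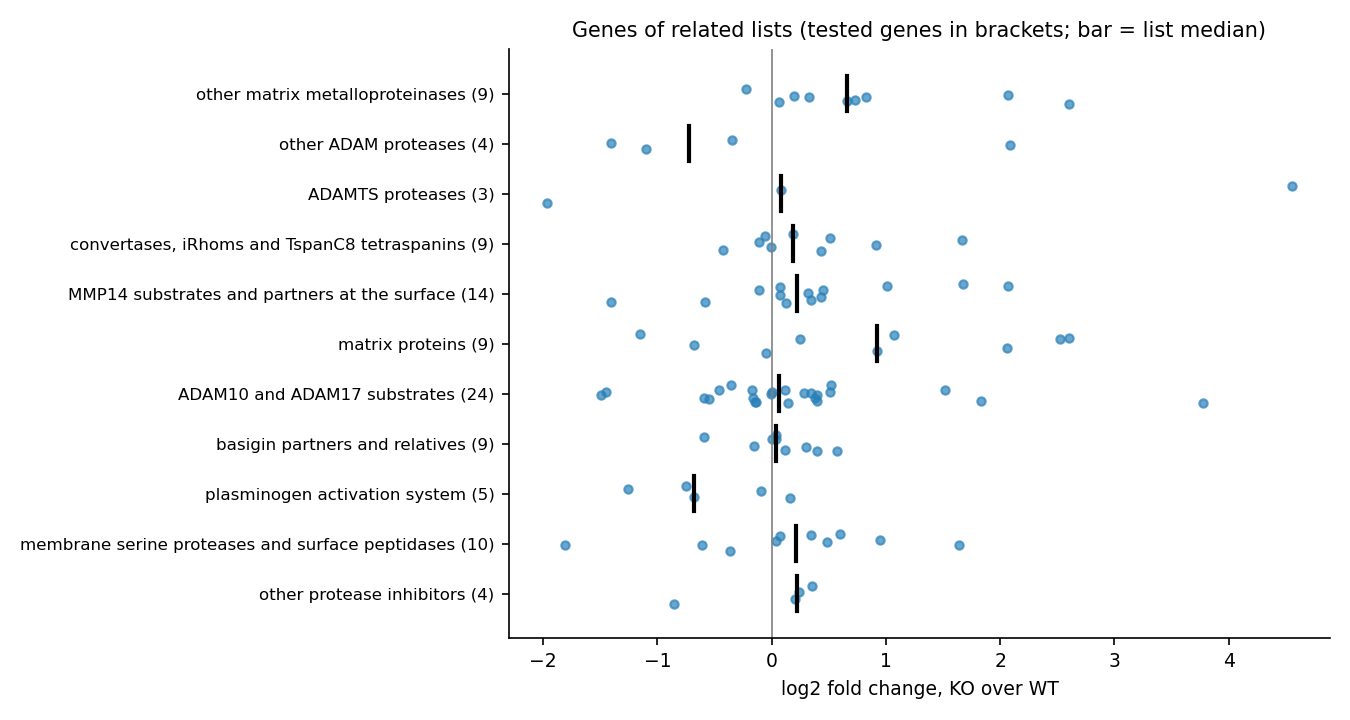
Log2 fold change of KO over WT for the tested genes of the 11 lists (points; Dll1 is left out because its KO counts are all 0) with each list's median (bar). Medians run from -0.73 for the other ADAM genes to 0.92 for matrix proteins, and 0 genes passed edgeR's test over all genes.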

How the data were processed

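The authors deposited raw read counts per Ensembl gene, 1 column per library. Trimmomatic 0.39, HISAT2 2.2.1, Picard 2.26.1, HTSeq 1.99.2, DESeq2 1.38.3 and mm39 are named without roles, per the submitters' processing notes; neither annotation release nor strand setting is stated. Without molecular identifiers, floors (3 counts) cover counting error only. Symbols matched 94.1% of identifiers.

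edgeR 4.0.16 (R 4.3.3) was run with filterByExpr (minimum count 10, total 15), TMM factors, robust dispersions and a robust quasi-likelihood fit (legacy off) with genotype as the only term, Benjamini-Hochberg adjusted over all 14592 genes; SE was derived from F. Profiles used log2 CPM with prior count 2. limma 3.58.1 and DESeq2 1.42.0 were alternatives. The fits were run on simulated counts that varied less between libraries than these data, whose common coefficient of variation by edgeR was 75.1%. That run does not show what the fits can recover here. Exon lengths and overlaps came from GENCODE on GRCm38, a different build from that of the counts, and gene coordinates are left out. Each list's 3 named genes had the smallest p among members with at least 5 CPM on average; others named for role or zero counts or no overlap (Mmp9, Tspan14, Dll1, Adamts3, Tgfa, Hpn) were chosen after their values were seen. Members and lists were chosen with earlier results of these data known.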

Additional observations from a re-analysis of the deposited data

How the results depend on the processing

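The Mmp14 log2 fold change of 2.50 ranged from 2.09 to 2.90 over the 6 fits that left out 1 library each and from 2.49 to 2.59 over the 8 other settings. The count of genes called by genotype was 0 by edgeR under upper-quartile or RLE factors, a filter of 5 CPM in 3 libraries or none, the legacy fit, with the replicate block and without each library (0 to 0), and 0 by limma-voom; DESeq2 called 153. Among the other members, limma-voom with sample weights turned Reck to 1.12 and Timp3 to -0.14. Leaving out 1 library gave ranges of -1.28 to 0.49 for Reck, -0.20 to 0.62 for Timp3, 0.11 to 0.87 for Timp2, -0.037 to 0.084 for Bsg, -0.27 to 0.15 for Adam10 and -0.386 to 0.061 for Adam17. The cause was not tested. With the replicate number as a block, the Mmp14 log2 fold change was 2.54; same-numbered libraries share only a number, since their deviations correlated at 0.06, -0.03 and -0.01 for numbers 1 to 3. List medians moved by more than 1 SD under limma-voom for matrix proteins (2.76) and other matrix metalloproteinases (4.22). Genes of a few CPM can be missed in 50 cells.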
